A study of Mus musculus with 6 samples.

Results

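The genes described here are Atf4 and 9 of the genes that its protein is known to activate. The 9 are Trib3, Asns, Chac1, Phgdh, Psat1, Psph, Shmt2, Mthfd2 and Aldh1l2, most of them genes of amino acid or one-carbon metabolism. Taken by gene symbol, Atf4 and the 9 gave 10 rows among the 24940 genes of the deposited exon count table. All 10 passed the filter on low counts that left 13357 genes for testing. The counts come from RNA sequencing of primary hepatic stellate cells, the vitamin A-storing mesenchymal cells of the liver sinusoid, of wild-type (wt) female C57BL/6JBomTac mice, whose age is not given in the sources used here. At 2 days in culture the forskolin group (Fsk in the labels) was given 5 µM forskolin, a plant diterpene that switches on adenylyl cyclase, the enzyme that makes cyclic AMP, and the vehicle group (Ctrl) the same volume of dimethyl sulfoxide. Fresh medium replaced both after 3 h, and RNA was collected 21 h later, at 24 h. Each group had 3 libraries, lettered A to C. Nothing in the labels ties a library to an animal or a culture, so the p-values rest on library-to-library spread that may be technical only.

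ATF4 is a leucine zipper transcription factor at the centre of the integrated stress response. Kinases that sense amino acid shortage, misfolded protein, viral RNA or heme shortage phosphorylate the initiation factor eIF2. General translation then slows, while ATF4 protein is made at a higher rate because of short upstream reading frames in its messenger RNA, so the Atf4 transcript level measured here is not a measure of ATF4 protein. ATF4, usually paired with a C/EBP protein, binds the C/EBP-ATF response element and activates genes for amino acid uptake and synthesis and for redox balance. Among its targets are the enzymes that make serine from a glycolytic intermediate and the mitochondrial enzymes that move the carbon of serine onto tetrahydrofolate for one-carbon metabolism. In activated stellate cells serine and the glycine made from it are also building blocks of collagen.

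The RefSeq promoter table of build GRCm38.p6 (the primary sequence of mm10) held 9 of the 10 genes, all but Aldh1l2. The 250 bases before the annotated start of each were searched on both strands for the core of the C/EBP-ATF response element, TGATGNAA, and for the cyclic AMP response element, TGACGTCA. The first was found before Asns and Chac1, that is in 2 of 9 genes, against 3.91% of all 27025 genes in the table, and the second before none of the 9, against 1.77%. The shorter core of the cyclic AMP response element, TGACG, was found before Atf4, Trib3, Asns and Chac1, against 19.8% of all genes, and it is contained in the full element. A match is a run of letters and not a bound site. 4 promoters are shown, each on the strand of its gene and 5′ to 3′: those of Asns and Chac1, with the match in capitals, that of Trib3, which had the largest fold change of the 10, and that of Phgdh, which begins serine synthesis. The regions are chr6:7693210-7693459 (minus strand), chr2:119350992-119351241 (plus strand), chr2:152344061-152344310 (minus strand) and chr3:98339970-98340219 (minus strand).
Asns: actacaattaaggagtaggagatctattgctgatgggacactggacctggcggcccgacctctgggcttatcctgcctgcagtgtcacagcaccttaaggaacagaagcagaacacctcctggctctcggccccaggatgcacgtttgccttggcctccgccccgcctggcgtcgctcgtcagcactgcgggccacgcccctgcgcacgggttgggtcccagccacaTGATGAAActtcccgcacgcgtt
Chac1: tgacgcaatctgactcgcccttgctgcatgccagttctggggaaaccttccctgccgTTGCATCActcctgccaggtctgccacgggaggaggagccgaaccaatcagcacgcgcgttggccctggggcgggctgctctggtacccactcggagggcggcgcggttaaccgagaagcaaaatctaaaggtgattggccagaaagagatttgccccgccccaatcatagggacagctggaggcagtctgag
Trib3: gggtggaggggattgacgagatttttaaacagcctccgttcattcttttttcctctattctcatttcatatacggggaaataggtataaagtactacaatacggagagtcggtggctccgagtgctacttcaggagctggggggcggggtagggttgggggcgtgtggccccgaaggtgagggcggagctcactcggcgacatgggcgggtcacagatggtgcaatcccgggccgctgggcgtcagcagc
Phgdh: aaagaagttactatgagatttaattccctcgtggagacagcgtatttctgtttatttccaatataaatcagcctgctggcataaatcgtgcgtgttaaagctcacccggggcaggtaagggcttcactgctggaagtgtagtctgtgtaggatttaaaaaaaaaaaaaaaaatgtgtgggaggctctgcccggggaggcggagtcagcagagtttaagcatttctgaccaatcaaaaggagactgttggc
The match of Asns read TGATGAAA and lay 23 to 16 bases before the start in that table, which is 27 bases upstream of the start in the deposited table. That of Chac1 read TGATGCAA on the opposite strand, 193 to 186 bases before the start. For Trib3 alone, the first 30 bases from the annotated start occurred in no GENCODE M21 transcript of the gene. Its start is therefore less certain, although the deposited table has the same one.

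The vehicle libraries were the deeper ones, with 13001358 to 15090262.5 counts each against 10890193 to 12954310 in the forskolin group. These ranges do not overlap, so library size as covariate, an alternative used below, cannot be fully told apart from treatment. Levels are given as CPM, the count as a rate per library total after TMM scaling, and levels of different genes are compared only as CPM per kilobase of exon. The labelled cell type was checked on 10 stellate cell markers, whose summed level was 4844 to 5103 CPM with vehicle and 4851 to 4987 CPM with forskolin, and of which 4 rose and 3 fell. Lrat was at 55.0 and 51.9 CPM. Des fell from 323 to 182, Pdgfrb from 381 to 282 and the collagen gene Col1a1 from 1540 to 1285 CPM. Dcn rose from 486.5 to 616.5, Nes from 812 to 977, Reln from 831 to 927 and Hand2 from 113 to 138 CPM. Hepatocyte markers, among them Alb, Apoa1 and Ttr, summed to at most 0.658 CPM over 9 genes in any library, and lymphocyte markers to at most 0.456 CPM over 5. Macrophage markers summed to 23.2 to 26.8 CPM with vehicle and 33.6 to 35.4 CPM with forskolin, nearly all from Cd68 and Csf1r, with Adgre1 at 0.123 and 0.0608 CPM and Marco at 0 counts. Markers of sinusoidal endothelium summed to 17.3 to 20.4 CPM with vehicle and 15.9 to 16.6 CPM with forskolin. Kdr fell from 3.21 to 1.08 and Lyve1 from 5.10 to 3.275 CPM, while Stab2 rose from 0.978 to 2.50 CPM. Stab1 was at 7.74 and 8.15 CPM and Pecam1 at 0.379 and 0.397 CPM. The 6 cholangiocyte markers summed to 137 to 152 CPM with vehicle and 392 to 427 CPM with forskolin, with Spp1 going up from 72.5 to 372 CPM and Krt19 down from 71.3 to 35.1 CPM, and Epcam at 0.201 and 0.332 CPM. The 6 markers of mesothelium and portal fibroblasts summed to 3.23 to 3.77 CPM with vehicle and 5.29 to 7.93 CPM with forskolin, where Thy1 went from 0.6501 to 4.93 CPM and Msln was at 0.399 and 0.292 CPM. The part of such cells in the changes below was not tested, and in bulk RNA a change in the number of cells of a type cannot be told from a change in RNA per cell.

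All 10 genes rose with forskolin, by 1.48-fold to 5.42-fold, with no overlap between the 3 forskolin and the 3 vehicle libraries for any of them. Together they took 0.0867% to 0.0901% of all counts in the vehicle libraries and 0.177% to 0.187% in the forskolin libraries. The median of their log2 fold changes was 1.21, against 0.01 over all genes tested. The 10 genes were chosen with earlier results of these data known, so their median and counts are not independent evidence of a direction. By edgeR's quasi-likelihood test with an adjusted p under 0.05, 24.8% of all genes tested were higher with forskolin, 25.1% were lower and 49.9% differed in either direction, so a single call is common here and the size of the change says more. For 28.8% of all genes tested every forskolin library lay above every vehicle library. When the fold was tested against 1.5-fold instead of no change (edgeR's glmTreat), 8 of the 10 genes were higher, against 3.16% of all genes tested. The exceptions were Atf4 (adjusted p = 0.239 against 1.5-fold) and Psat1 (adjusted p = 1).

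**Figure D1:**
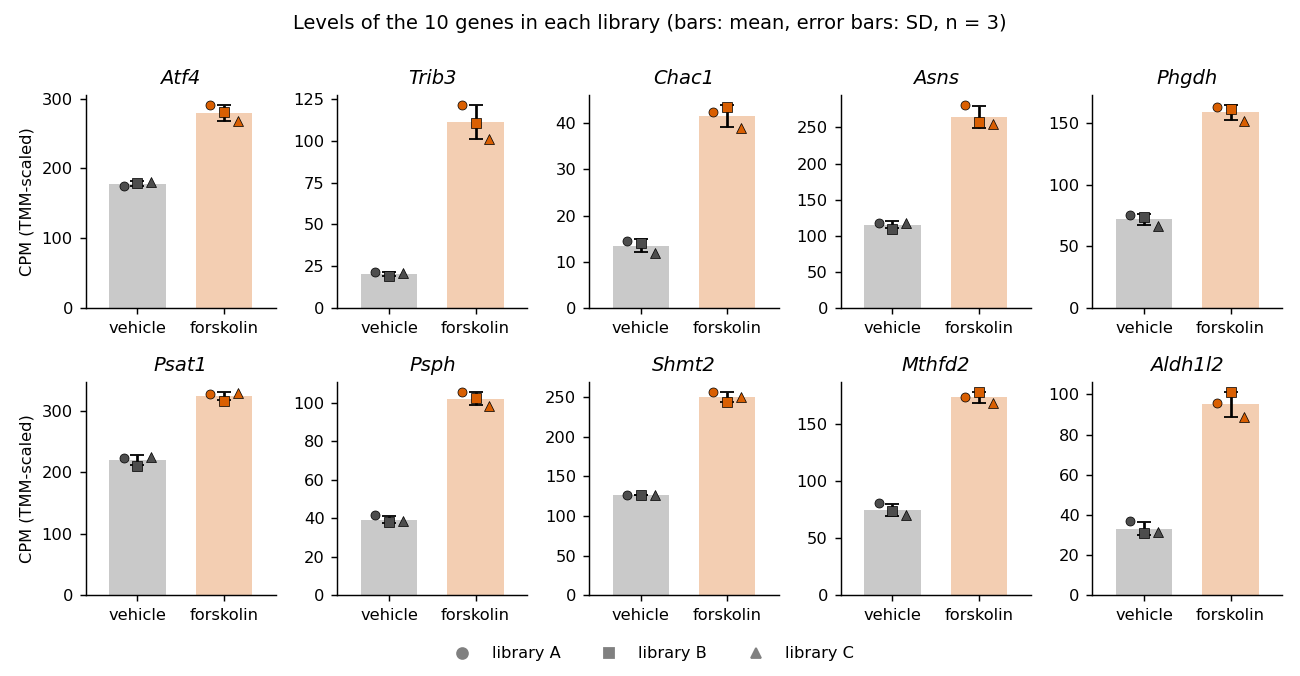
TMM-scaled CPM (y axis, from 0) of each of the 10 genes in the 3 vehicle (grey) and 3 forskolin (orange) libraries; bars are means, error bars SD, and the marker shape gives the library letter. In every panel the lowest forskolin library is above the highest vehicle library; the y axes differ between panels.

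Atf4 itself (chromosome 15, 80255184 to 80257545, transcript NM_009716) was at 175, 179 and 181 CPM in vehicle A, B and C and at 290.5, 281 and 267 CPM in forskolin A, B and C. The lowest forskolin library was well above the highest vehicle library. The mean went from 178 ± 3.20 to 279 ± 11.7 CPM (SD, n = 3 each), 1.57-fold (95% interval 1.47 to 1.67, edgeR adjusted p = 5.73e-10), the smallest change of the 10 genes but for Psat1. As counted per kilobase of exon, Atf4 had the highest mean level of the 10 in both groups, 103 ± 1.85 CPM with vehicle and 162 ± 6.79 CPM with forskolin.

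Trib3 (chromosome 2, 152337425 to 152344060, NM_175093) encodes a pseudokinase that is induced by ATF4 and in turn restrains it. It had 21.4, 19.3 and 20.9 CPM in the vehicle libraries and 122, 111 and 101 CPM in the forskolin libraries. Its 5.42-fold change (95% interval 4.86 to 6.03, edgeR adjusted p = 1.77e-14) placed it 57th of 13357 genes when ordered by log2 fold change from the top. Chac1 (chromosome 2, 119351242 to 119354327, NM_026929) encodes an enzyme that breaks down glutathione. It was the gene with the lowest vehicle CPM of the 10, at 14.5, 14.1 and 11.8 CPM, and reached 42.5, 43.5 and 39.0 CPM with forskolin, 3.08-fold (95% interval 2.70 to 3.52, edgeR adjusted p = 5.84e-11). For both genes the forskolin libraries lay far above the vehicle libraries. Per kilobase of exon their vehicle levels, 10.04 and 8.61 CPM, were the lowest of the 10 but for Aldh1l2.

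Asns (chromosome 6, 7675171 to 7693182, NM_012055) encodes asparagine synthetase, which makes asparagine from aspartate with glutamine as nitrogen donor. It stood at 118, 109.5 and 118 CPM with vehicle and at 281, 257 and 255 CPM with forskolin. The groups were far apart for their spread, with a 2.29-fold change (95% interval 2.14 to 2.46, edgeR adjusted p = 7.39e-13).

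The serine synthesis pathway has 3 enzymes, and all their genes rose, the middle step by less than the others. Phgdh (chromosome 3, 98313171 to 98339969, NM_016966) encodes phosphoglycerate dehydrogenase, which takes phosphoglycerate out of glycolysis. Its vehicle values were 75.4, 73.5 and 66.6 CPM and its forskolin values 163, 161.5 and 152 CPM, 2.21-fold (95% interval 2.04 to 2.38, edgeR adjusted p = 3.82e-12). Psat1 (chromosome 19, 15905123 to 15925059, NM_177420) encodes the aminotransferase of the next step and was the most abundant of the 3 per kilobase of exon, at 101.8 ± 3.64 CPM with vehicle. Its values were 223, 211 and 226 CPM with vehicle and 328, 317 and 329 CPM with forskolin, which did not overlap either, and its fold of 1.48 (95% interval 1.39 to 1.57, edgeR adjusted p = 2.83e-09) was the lowest of the 10. Psph (chromosome 5, 129765558 to 129787253, NM_133900) encodes the phosphatase that releases serine. It rose from 41.5, 37.9 and 38.6 CPM to 106, 103 and 98.6 CPM, 2.60-fold (95% interval 2.39 to 2.83, edgeR adjusted p = 8.13e-13). The interval of Psat1 lies below those of Phgdh and Psph, and the difference between the genes was not tested further. Counts of Phgdh are uncertain, as 36.9% of the 50-base stretches of its transcript occur in no other GENCODE M21 transcript, the rest being shared with transcripts of 23 other genes such as Gm7901. The place of Psat1 above Phgdh by level is uncertain for the same reason. Over all GENCODE M21 transcripts Psph shares 452 exon bases with Cct6a on the opposite strand, and the labels do not say that strand was kept. The row counted for Cct6a starts at 129787356, so it does not overlap that of Psph. Cct6a rose by 0.14 on the log2 scale, against 1.38 for Psph, which is no check on the shared bases. The transcript of Psph had 76.1% unique stretches.

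The mitochondrial branch of folate metabolism starts with Shmt2 (chromosome 10, 127517123 to 127522444, NM_001252316), whose enzyme splits serine into glycine and a carbon unit bound to tetrahydrofolate. It was even across the vehicle libraries, at 127, 126 and 126 CPM, and went to 257, 244.5 and 250 CPM with forskolin, 1.98-fold (95% interval 1.87 to 2.10, edgeR adjusted p = 9.63e-13). Mthfd2 (chromosome 6, 83305704 to 83317604, NM_008638) encodes the dehydrogenase and cyclohydrolase that oxidises the carbon unit further. Its values were 80.6, 73.7 and 70.5 CPM with vehicle and 174, 178.5 and 169 CPM with forskolin, 2.32-fold (95% interval 2.15 to 2.50, edgeR adjusted p = 1.19e-12). Aldh1l2 (chromosome 10, 83487447 to 83534140, NM_153543) encodes the enzyme that oxidises formyl-tetrahydrofolate to carbon dioxide and yields NADPH in mitochondria. It had the lowest level of the 10 per kilobase of exon in both groups (5.53 ± 0.559 and 15.8 ± 1.04 CPM), and rose from 37.1, 31.1 and 31.3 CPM to 95.7, 101.0 and 88.6 CPM, 2.87-fold (95% interval 2.59 to 3.18, edgeR adjusted p = 4.51e-12). Over all GENCODE M21 transcripts Aldh1l2 shares 1056 exon bases with D10Wsu102e on the opposite strand. The row counted for D10Wsu102e ends at 83368835, so it does not overlap that of Aldh1l2. It fell by 0.27 on the log2 scale, which is no check on the counts of Aldh1l2. The transcript of Aldh1l2 had 83.2% unique stretches. Outside Phgdh, Psph and Aldh1l2 the transcripts had 98.1% to 100% unique stretches.

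The order of levels per kilobase of exon was the same in both groups: Atf4, Psat1, Asns, Shmt2, Phgdh, Mthfd2, Psph, Trib3, Chac1 and Aldh1l2. With vehicle the libraries of Atf4 (101 to 105 CPM per kilobase) overlapped those of Psat1 (97.7 to 104.5), and those of Phgdh (35.9 to 40.6) overlapped those of Mthfd2 (34.2 to 39.1). With forskolin Psat1 (147 to 152) overlapped Asns (133 to 147) and Phgdh (81.8 to 87.8) overlapped Mthfd2 (82.0 to 86.6). All other neighbours in the order were apart in every library of a group. Psat1 and Asns, with means of 101.8 and 60.3 CPM per kilobase with vehicle, came close to each other with forskolin, at 150.3 and 138.

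Each of the 3 mitochondrial enzymes has a cytosolic relative that catalyses the matching step, and none of the relatives was called higher. Shmt1 had a mean of 9.73 ± 0.863 CPM in the vehicle group and of 7.34 ± 1.73 CPM in the forskolin group, a log2 fold change of -0.40 (95% interval -0.74 to -0.06) that was barely past the threshold (edgeR adjusted p = 0.0485) and was lost with 8 of 13 alternatives, with log2 fold changes from -0.466 (without forskolin B, adjusted p = 0.0544) to -0.227 (without forskolin A, adjusted p = 0.206) and -0.084 (library size as covariate, adjusted p = 0.814). Mthfd1, a larger enzyme with a further synthetase activity, was at 106 ± 4.11 and 104 ± 5.73 CPM (log2 fold change -0.02, 95% interval -0.13 to 0.09, edgeR adjusted p = 0.752). Aldh1l1 was at 11.7 ± 0.3202 and 10.8 ± 0.472 CPM (log2 fold change -0.11, 95% interval -0.36 to 0.13, edgeR adjusted p = 0.437). These intervals leave room for small changes in either direction for Mthfd1 and Aldh1l1, but not for changes of the size of their mitochondrial relatives.

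**Figure D2:**
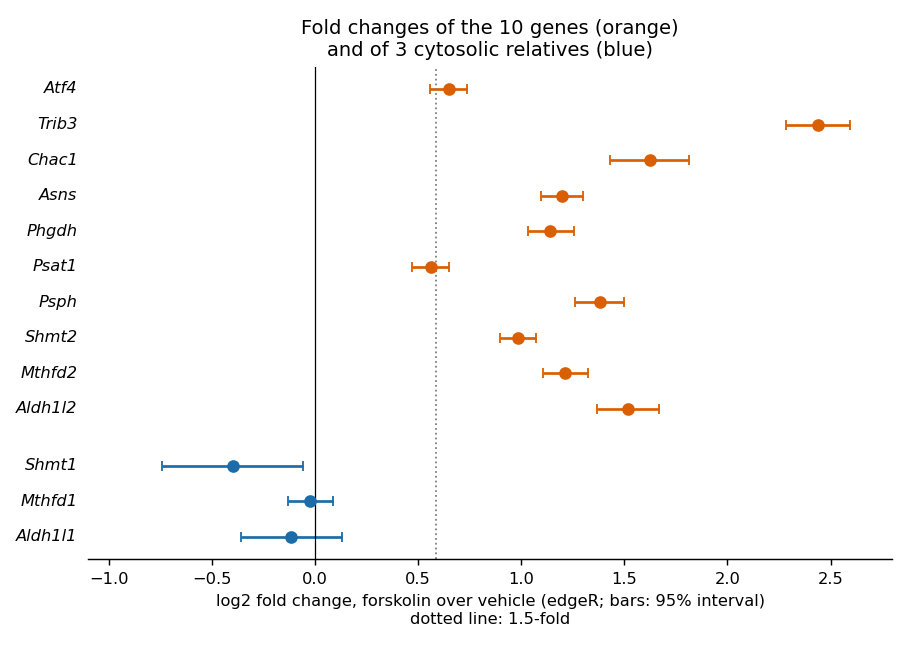
Log2 fold change of forskolin over vehicle (x axis) with its 95% interval from the edgeR fit, for the 10 genes (orange) and the cytosolic relatives Shmt1, Mthfd1 and Aldh1l1 (blue); the dotted line marks 1.5-fold. The intervals of Atf4 and Psat1 reach the dotted line, the other 8 lie to its right, and all 3 cytosolic relatives lie to its left.

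The ratio of the mitochondrial to the cytosolic transcript within a library does not depend on how libraries are scaled. Per kilobase of exon Shmt2 exceeded Shmt1 by 12.8, 10.7 and 11.6 times in vehicle A, B and C and by 42.6, 27.3 and 25.9 times in forskolin A, B and C. Shmt1 had 59 counts in forskolin A against 106 and 105 in B and C, so its ratio is the least precise. Mthfd2 was close to Mthfd1 with vehicle, at ratios of 1.28, 1.08 and 1.05, and above it with forskolin, at 2.81, 2.77 and 2.45. Aldh1l2 over Aldh1l1 went from 1.61, 1.37 and 1.43 to 4.36, 4.83 and 4.44. The mean log2 ratio thus rose by 1.42 for Shmt2 over Shmt1, by 1.24 for Mthfd2 over Mthfd1 and by 1.63 for Aldh1l2 over Aldh1l1. For each of the 3 pairs the groups did not overlap. The exact two-sided permutation test over 3 against 3 libraries gave p = 0.1, the smallest value that this design allows. It was 0.1 also after Benjamini-Hochberg adjustment over the 3 pairs. The mitochondrial genes were chosen with earlier results of these data known, so these tests are not independent evidence of a direction.

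**Figure D3:**
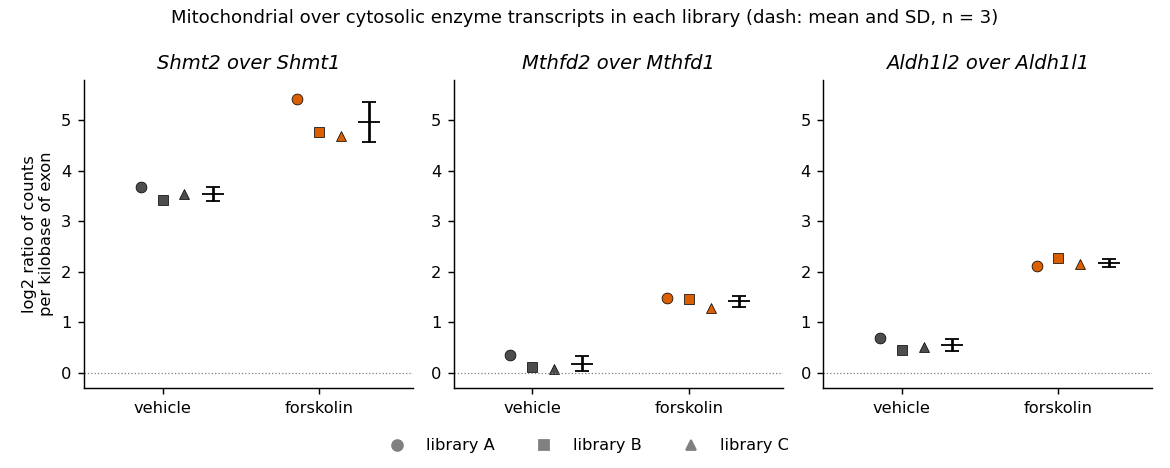
Log2 ratio of counts per kilobase of exon (y axis) of the mitochondrial over the cytosolic enzyme gene in each vehicle (grey) and forskolin (orange) library, with the mean and SD beside the points; the dotted line marks equal levels. All forskolin points lie above all vehicle points in the 3 panels, and the forskolin libraries spread most for Shmt2 over Shmt1.

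Other genes of serine, glycine and folate metabolism did not move as one. Of 37 such genes 34 were tested, of which 10 rose, 6 fell and 18 did not pass (edgeR, adjusted p under 0.05), with a median log2 fold change of 0.01, the same as over all genes tested. Over all genes tested 24.8% rose and 25.1% fell, so the list's counts are near that background. This list too was chosen with earlier results of these data known. Without vehicle C 8 rose and 3 fell. Gnmt, Bhmt and Dmgdh had 25, 0 and 4 counts over all libraries and were not tested. The largest rise was that of Cth, whose enzyme makes cysteine from cystathionine, from 5.94 ± 0.511 to 26.8 ± 2.40 CPM (log2 fold change 2.17, adjusted p = 3.63e-11). Mthfd1l, which encodes the mitochondrial formyl-tetrahydrofolate synthetase, rose from 89.6 ± 1.45 to 142 ± 3.77 CPM (0.66, adjusted p = 9.71e-10). Carriers that serve the mitochondrial branch rose by less. Sfxn1, a mitochondrial serine transporter gene, went from 131 to 161 CPM (0.29, adjusted p = 5.79e-05). Slc25a32, the mitochondrial folate carrier gene, went from 25.0 to 31.5 CPM (0.33, adjusted p = 0.00178). Not all mitochondrial genes of the list rose. Mthfd2l, a mitochondrial relative of Mthfd2, did not pass (-0.035, adjusted p = 0.876). Of the glycine cleavage genes, Gcsh fell (-0.27, adjusted p = 0.000197), as did Gldc at a low level (-0.88, adjusted p = 0.0294). Dld rose (0.22, adjusted p = 0.000645) and Amt did not pass (0.36, adjusted p = 0.196). The folate transporter gene Slc46a1 fell from 51.1 to 40.1 CPM (-0.35, adjusted p = 0.00017). Another, Slc19a1, rose from 31.45 to 37.7 CPM (0.26, adjusted p = 0.00569).

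Most other known targets of ATF4 rose with the 10 genes. Of 38 genes 37 were tested, and 32 rose, 3 fell and 2 did not pass, with a median log2 fold change of 0.57. Fgf21 had 2 counts over all libraries and was not tested. The share over all genes tested was 24.8% higher and 25.1% lower. The largest log2 fold change was that of Adm2, a peptide hormone gene with a low level (2.79, from 1.11 to 7.61 CPM), and Vldlr, a lipoprotein receptor gene, rose by 1.91. The 4 smallest adjusted p values were those of Pck2, Slc6a9, Slc7a11 and Slc7a5. Pck2, the mitochondrial phosphoenolpyruvate carboxykinase gene, rose from 47.9 ± 2.14 to 151 ± 2.09 CPM (log2 fold change 1.66, edgeR adjusted p = 1.8e-14), and the glycine transporter gene Slc6a9 from 34.7 ± 0.892 to 116 ± 7.54 CPM (1.74, adjusted p = 8.5e-14). The cystine transporter gene Slc7a11 rose by 1.99 and the large neutral amino acid transporter gene Slc7a5 by 0.97 on the log2 scale. The proline synthesis genes Pycr1 and Aldh18a1 rose by 1.35 and 1.01, the alanine aminotransferase gene Gpt2 by 1.27 and the serine and alanine transporter gene Slc1a4 by 1.44. Among transcription factor genes of the same response, Cebpg rose by 0.99, Atf5 by 0.87, Ddit3 (CHOP) by 0.39 and Atf3 by 0.31, the last with an adjusted p of 0.0226 that was lost with library size as covariate (0.154 on the log2 scale, adjusted p = 0.517) and without forskolin A (0.195, adjusted p = 0.114), vehicle B (0.293, adjusted p = 0.0853) or vehicle C (0.268, adjusted p = 0.0955). The 3 that fell were Sesn2 (-0.50), Ppp1r15a (-0.31) and Herpud1 (-0.23), and those that did not pass were Slc7a1 (-0.02) and Jdp2 (-0.01). Sesn2 encodes a leucine sensor that restrains mTORC1, and Ppp1r15a a subunit of the phosphatase that reverses eIF2 phosphorylation. Counts of Slc6a9 are uncertain, as 58.8% of its stretches are unique and it shares others with Ccdc24, which rose by 0.70 from 2.31 CPM. The list holds genes that were known from earlier results of these data to have risen, so its count is not independent evidence of a direction.

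Genes of the upstream machinery and of the other arms of the endoplasmic reticulum stress response are given for comparison. Of 17 genes for eIF2, its kinases, its exchange factor eIF2B and its phosphatases, 6 rose, 8 fell and 3 did not pass, with a median log2 fold change of -0.07, against 24.8% higher and 25.1% lower over all genes tested. All 4 kinase genes fell, Eif2ak4 (the amino acid sensor GCN2) from 68.2 to 51.8 CPM (-0.40), Eif2ak3 (PERK) from 51.8 to 40.2 CPM (-0.37), Eif2ak1 (HRI) from 106 to 82.6 CPM (-0.36) and Eif2ak2 (PKR) from 86.5 to 71.0 CPM (-0.28). Eif2b2, an eIF2B subunit gene, fell by 0.52 (adjusted p = 5.37e-08) and Eif2s2, an eIF2 subunit gene, rose by 0.39 (adjusted p = 1.15e-06). Phosphorylation of eIF2 was not measured in these data. Counts of Eif2s2 are uncertain, with 72.2% unique stretches. Those of Eif2ak1 may be so to a lesser degree, with 87.9%. That share is of 4276 stretches, from a transcript longer than the 2555 exon bases counted for Eif2ak1. Of 20 genes of the ATF6 and XBP1 arms, which raise the folding capacity of the endoplasmic reticulum, 16 fell, 1 rose and 3 did not pass, with a median of -0.26, against the same 25.1% lower and 24.8% higher over all genes tested. Creld2 fell from 135 ± 3.42 to 84.0 ± 1.09 CPM (-0.68, adjusted p = 7.72e-10) and the sensor gene Atf6 from 247 to 165 CPM (-0.58). The ubiquitin ligase gene Syvn1 fell by 0.46 and the cochaperone gene Dnajc3 by 0.44, while the chaperone genes Hspa5 (BiP) and Hsp90b1 (GRP94) fell by 0.26 and 0.19. Xbp1 was the gene that rose, from 165 to 186 CPM (0.17, adjusted p = 0.00269), which did not pass with library size as covariate (0.165, adjusted p = 0.0604). Its splicing cannot be read from gene counts. The count of Ppp1r15a enters both the list of ATF4 targets and that of the eIF2 machinery, and Cth enters 2 of the lists as well. The eIF2 and chaperone lists were also chosen with earlier results of these data known. Their counts and medians are therefore not independent evidence of a direction.

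**Figure D4:**
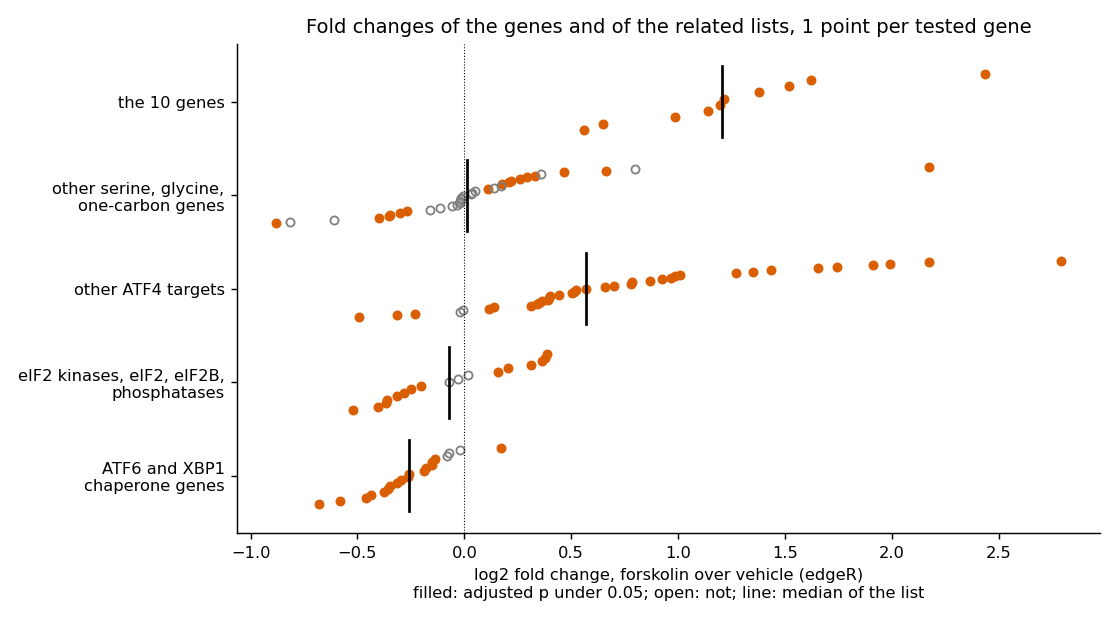
Log2 fold change of forskolin over vehicle (x axis) for each tested gene of the 10 and of the 4 related lists; filled points have an edgeR adjusted p under 0.05, open points do not, and the vertical line is the median of a list. The medians are 1.21 for the 10 genes, 0.01, 0.57, -0.07 and -0.26 for the lists from top to bottom.

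The genes with the most similar profiles were sought among 10705 named genes with a mean of at least 5 CPM, by the Euclidean distance between log2 CPM values centred on each gene's mean over the 6 libraries. Nearest to Trib3 were Spp1, the osteopontin gene (distance 0.200), Hsd3b1, a steroid dehydrogenase gene (0.324), and Smim3, a gene for a small membrane protein (0.343). They rose from 72.5 to 372, from 15 to 92.6 and from 15.9 to 85.8 CPM. Unique stretches made up 90.9% for Spp1 and 95% for Hsd3b1. These shares are of the longest GENCODE transcript of each symbol, which may not be the transcript counted. Nearest to Shmt2 were the quinone reductase gene Nqo1 (distance 0.0496), the microsomal glutathione transferase gene Mgst1 (0.0759) and the hepatocyte growth factor gene Hgf (0.0953), which rose by 0.99, 0.98 and 1.02 on the log2 scale. With 6 libraries in 2 groups such a distance mostly measures the likeness of the group difference.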

How the data were processed

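Polyadenylated RNA of 6 stellate cell libraries was analysed. The authors deposited 1 table of unnormalised estimated counts per RefSeq transcript, made with STAR and HOMER on mm10 per the submitters' processing notes. The values come in steps of 0.5, with 31.8% of them not whole. For versions, settings, strand handling and the counting rule behind these steps the sources used here give nothing.

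Counts were rounded to whole numbers. In R 4.3.3 with edgeR 4.0.16, the low-count filter was filterByExpr (count of at least 10, total of at least 15). After TMM scaling the quasi-likelihood test of forskolin over vehicle was run without covariates. P-values are two-sided, Benjamini-Hochberg adjusted over 13357 genes, with a threshold of 0.05. Intervals come from the same fit. The fit was tested on simulated data. Exact permutation tests were used for ratios, with 0.5 added to each count. Depth of 10890193 to 15090262.5 counts per library gave at least 150 counts for each of the 10 genes in every library. Alternatives were the replicate block, DESeq2 1.42.0, other scalings, no filter, no rounding, library size as covariate, a 1.5-fold null and leaving out each library.

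The genes and the lists were chosen with earlier results of these data known. Named are the 10 genes, per list the 4 genes of lowest adjusted p, the cytosolic relatives and the nearest profiles. Other genes named were chosen after their values were seen.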

Additional observations from a re-analysis of the deposited data

How the results depend on the processing

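All 10 genes kept their direction and an adjusted p under 0.05 in edgeR or DESeq2 under each of 13 alternatives, the highest adjusted p being 7.71e-06 (Psat1, library size as covariate), and 8 of them passed against a 1.5-fold change. Among all genes 4297 passed with library size as covariate and 1000 against 1.5-fold, in place of 6668. Library size did not overlap between the groups, at most 12954310 counts with forskolin and at least 13001358 with vehicle. That covariate therefore cannot be fully told apart from treatment. With library size alone, 3988 genes rose and 2874 fell, in place of 3319 and 3349, and the median log2 fold change of all genes moved by 0.043. With the replicate block 10 of the 10 genes and 6675 genes passed. The letters are not stated to pair the libraries, and deviations of same-lettered libraries from their group means correlated with r of 0.024 to 0.034, although each library correlated best with its own letter. The chaperone list had 13 to 16 genes lower and the list of ATF4 targets 29 to 32 higher under 8 alternatives. The eIF2 list had 5 to 6 higher and 7 to 9 lower, and the list of other serine, glycine and one-carbon genes 8 to 11 higher and 3 to 8 lower. Of the genes that did not pass, Mthfd1 turned positive with library size alone (0.021) and as covariate (0.028), its values without 1 library being -0.065 to 0.014, Slc7a1 and Jdp2 with library size alone (0.022 and 0.036), with leave-one-out values from -0.068 to 0.023 and from -0.029 to 0.02. The cause was not tested. No group was large enough for the search for outlying libraries.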
